A study of Danio rerio with 12 samples.

Results

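Chromatin accessibility was compared between zebrafish endodermal cells treated with BMS493, an inverse agonist of all retinoic acid receptors (RARs), and endodermal cells treated with the vehicle DMSO. The 3 BMS493 and the 3 DMSO peak lists were taken by their labels, 6 of the 12 ATAC-seq samples of the series. ATAC-seq inserts sequencing adaptors into open DNA, so that a peak marks a nucleosome-free region.

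All embryos came from incrosses of Tg(sox17:GFP) adults, a line in which the sox17 promoter drives GFP in the endoderm, and were collected at the 3 somites stage. Treatment began at the 2-cell stage and ran until collection. The DMSO, BMS493 and RA groups were GFP+ cells sorted by FACS from embryos given DMSO, BMS493 or retinoic acid (RA), and the NE group was the GFP- non-endodermal cells of DMSO-treated embryos, with 3 samples in each group. The RA and NE samples serve to place the values of DMSO and BMS493. They also entered the limma fit on ranks, so its standard errors and p-values hold their spread, and they counted in the choice of tested regions. Every measurement is an average over sorted cells of whole embryos, in which fewer cells with an open region and a less open region per cell cannot be told apart. The labels do not say that replicates came from separate batches of embryos, so the p-values measure the spread between these samples, which may be technical.

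RA is a lipid-soluble signal made from vitamin A. It binds RARs, which sit on DNA with RXR partners: with RA the pair recruits coactivators, and without it the pair holds corepressors, a state that an inverse agonist such as BMS493 strengthens. In the early vertebrate endoderm RA signalling sets anteroposterior pattern and is needed for the pancreas, and among its best known direct targets are genes that restrain the signal itself, such as the cyp26 enzymes, which degrade RA, and dhrs3, which returns retinal to retinol.

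Peaks of the 12 lists that shared at least 1 bp were merged into 245646 regions, of which 168173 were called in at least 1 of the 6 DMSO and BMS493 samples. In each sample a region was given the percentile rank of its pileup (the height of its tallest peak in stacked tags) within that sample's own list, 100 being the tallest and 0 meaning that no peak was called. The lists differed in length: the DMSO samples held 51301, 110584 and 121433 peaks and the BMS493 samples 75611, 115656 and 86750, from 11951035 to 16449168 tags after filtering. A rank of 0 says only that no peak was called, and DMSO replicate 1 had the shortest list of the 6 samples. Counts are therefore also given for lists of equal length, the 51301 peaks of every sample with the largest −log10 q, the significance value listed with each peak. Regions called in all 3 RA and in no NE sample, an endodermal set that used none of the 6 samples, were called in 27.5% to 72.1% by the DMSO and in 47.1% to 61.3% by the BMS493 samples, against 4.64% to 35.0% and 11.7% to 29.4% for the opposite, non-endodermal set. With lists of equal length the endodermal shares were 55.1% to 67.8% in DMSO and 54.4% to 60.9% in BMS493, and the non-endodermal shares were 16.6% to 22.9% and 18.4% to 25.5%. Both groups thus held the regions of endoderm more often than those of the other cells, and the ranges of the treatments overlapped. As RA-treated cells defined both sets, these may also hold regions that added RA opened or closed, so the shares do not measure cell type alone.

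Across the genome, almost no region separated BMS493 from DMSO. Of 127026 regions called in at least 3 of the 12 samples, 1 (0.000787%) was lower in BMS493 at an adjusted p under 0.05 (limma on the ranks of all 12 samples, Benjamini-Hochberg) and 0 (0.0%) were higher. At an unadjusted limma p under 0.05 there were 1256 lower regions (0.989%) and 998 higher regions (0.786%), 1.77% in either direction. In a limma fit of only the 6 DMSO and BMS493 samples, 323 regions were lower and 525 higher. In the 36502 regions called in all 6 samples, where the height itself can be compared, limma on log2 pileups found 0 (0.0%) lower and 0 (0.0%) higher at an adjusted p under 0.05, and 651 (1.78%) lower and 600 (1.64%) higher unadjusted. Only 270 regions (0.161% of those called in the 6 samples) were called in every DMSO and no BMS493 sample, and 257 (0.153%) in every BMS493 and no DMSO sample. For 1 region taken alone, an exact permutation test of 3 against 3 cannot go below p = 0.1, so the calls rest on the spread that limma shares across regions.

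The 1 region past the threshold lies on chromosome 3 (D1, chr3:13677737-13678935, build Zv9). Its ranks were 80.8, 78.5 and 85.6 in DMSO, from pileups of 16, 19 and 22 tags, and 0 in all 3 BMS493 samples. It was open in every other group, with ranks of 95, 95.4 and 90.8 in RA and of 86.2, 80.7 and 85.8 in NE. The difference of BMS493 minus DMSO was -81.6 ± 9.82 rank points (SE, n = 3 in each group; limma adjusted p = 0.0227). The nearest gene placed by the study's tables is si:ch73-346m18.6, whose start is 26.9 kb away. Those tables place only genes given to RAR sites of RA-regulated genes or to peaks that differed between RA and BMS493. Other genes may therefore lie closer, here and at the regions named below. The call was lost when every list was cut to the shortest length or when only the 6 samples were fitted.

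By unadjusted p, the next 4 regions called only in DMSO had limma adjusted p between 0.0827 and 1. D2 (chr11:15140076-15140768) ranked 74.0, 80.8 and 84.0 in DMSO, and D3 (chr20:24985013-24985562), 7.36 kb from epha7, a receptor for ephrins that guides cell sorting and boundaries, ranked 64.5, 82.8 and 78.1. Both were called in all 3 RA and all 3 NE samples, D2 at 91.5, 94.3 and 98.3 in RA and D3 at 97.4, 78.0 and 78.7. The order by p came from the fit of all 12 samples, which favours regions with even ranks within RA and within NE. The other two behaved differently: D4 (Zv9_NA552:1291-1453, an unplaced scaffold) was called only in DMSO, at 80.8, 66.3 and 55.7, and D5 (chr4:27877119-27877621) was at 98.8, 87.5 and 89.4 in DMSO, in 1 RA sample at 90.5, and in all 3 NE samples.

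Of the 5 leading regions called only in BMS493, 3 had no peak in any other sample of the series. These were B1 (Zv9_NA219:97929-98145), with ranks of 93.9, 77.3 and 88.8 in BMS493, B3 (chr10:4963618-4963783), with 64.3, 61.2 and 68.8, and B4 (chr20:53718473-53718625), with 52.6, 61.2 and 72.8. B1 spanned 217 bp, B3 166 bp and B4 153 bp, narrower than the median of 258 bp over regions called in at least 1 of the 6 samples. B2 (Zv9_NA623:4729-5345) was at 85.0, 68.8 and 85.7 in BMS493 and was called in all RA and NE samples. B5 (chr21:19380485-19381026), 3.49 kb from efna5a, which encodes an ephrin ligand, was at 59.0, 87.5 and 87.3 in BMS493 and at 71.6, 85.2 and 70.0 in NE, with no peak in RA. The limma adjusted p of these 5 regions lay between 0.0859 and 0.997. Their order by p also came from the fit of all 12 samples, which favours regions without spread within RA and within NE.

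**Figure D1:**
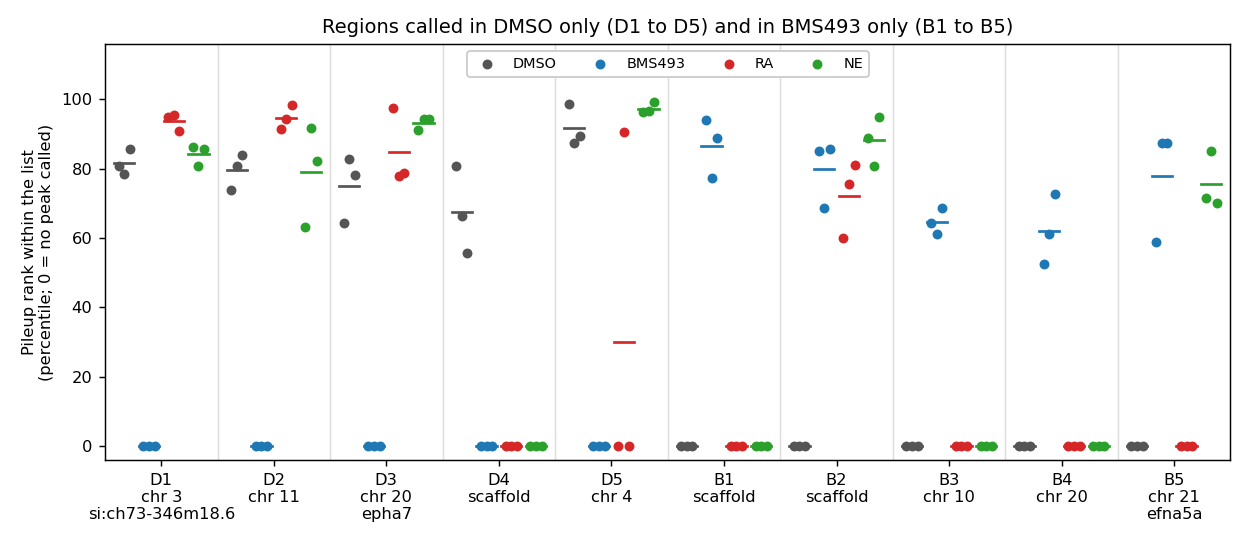
Percentile rank of the pileup within each list (vertical axis, 0 where no peak was called) in every sample for the 5 leading regions called only in DMSO (D1 to D5) and only in BMS493 (B1 to B5); points are samples, bars are means of 3 and labels name the nearest gene placed by the study's tables, if within 50 kb. D1, D2 and D3 ranked above 60 in every RA and NE sample, whereas B1, B3 and B4 were at 0 outside BMS493. The choice by p used the spread within RA and NE too, so it favours such even patterns.

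The sets called in 1 treatment only were chosen on DMSO and BMS493 calls, and the RA and NE samples were not used for it. The 270 regions called only in DMSO were called in 71.9%, 55.9% and 49.6% by the 3 RA samples, and the 257 called only in BMS493 in 48.2%, 32.7% and 24.5%. All 3 RA samples held 94 of the 270 (34.8%) and 22 of the 257 (8.56%), while no RA sample held 40 and 88. Of all regions called in at least 1 of the 6 samples, 32.7% were called in all 3 RA samples, so the share for DMSO was near that of all regions and the share for BMS493 was below it. Of the regions called in at least 3 of the 12 samples, a filter that counts RA calls, the RA samples called 74.4%, 61.5% and 55.6%. Both sets lay below these shares in every RA sample, but the shares again include the regions called in all 6 samples. In NE cells the shares lay closer together, at 39.3%, 65.9% and 41.9% for the regions of DMSO and 37.0%, 62.6% and 35.4% for those of BMS493. Each RA sample thus held more of the DMSO regions than of the BMS493 regions, by more than each NE sample did. With lists of equal length, 308 regions were called only in DMSO and 329 only in BMS493. The 3 RA samples held 58.4%, 54.9% and 52.9% of the former and 34%, 30.4% and 30.7% of the latter. They called 69.0%, 66.0% and 64.3% of all regions tested at that length. Most of the 270 and of the 257 regions were small peaks: their mean rank was 33.3 in DMSO for the first set and 29.5 in BMS493 for the second. Their median widths of 278.5 and 247 bp were below the 430 bp of regions called in all 6 samples.

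**Figure D2:**
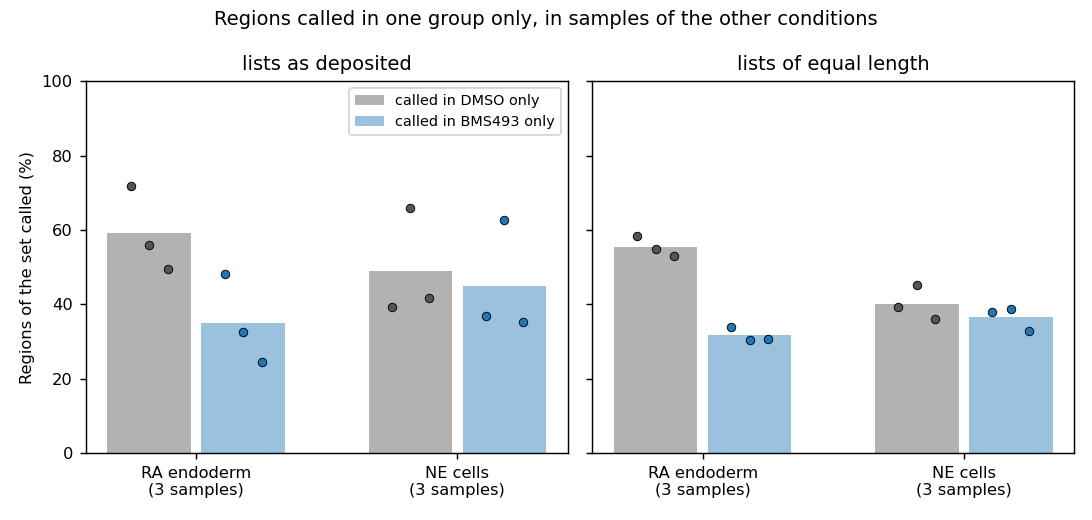
Share (%) of the regions called only in DMSO (grey) and only in BMS493 (blue) that each RA or NE sample also called, with the lists as deposited (left) and cut to equal length (right); points are samples and bars are means of 3. The RA samples held 49.6% to 71.9% of the DMSO regions and 24.5% to 48.2% of the BMS493 regions, and the NE ranges overlapped.

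At RAR binding sites more regions were lower than higher in BMS493, by unadjusted p. The study had mapped the sites by ChIP-seq of a tagged RARaa expressed from injected RNA in whole embryos at the end of gastrulation. Per its methods, RA was added for an hour beforehand to induce RAR binding. The sites are therefore not specific to endoderm, and they were not mapped under DMSO or BMS493. On the 11 chromosomes (1 and 10 to 19) used for all sites, 992 regions overlapped a site, and 891 of them could be tested. At an unadjusted limma p under 0.05, 30 (3.37%) were lower in BMS493 and 3 (0.337%) higher, beside 0.951% and 0.712% of all regions on those chromosomes. With lists of equal length the counts were 39 lower (5.49%) and 7 higher (0.986%) of 710, beside 2.18% and 2.33%. Every DMSO rank was above every BMS493 rank in 22 regions (2.47%) and below it in 4 (0.449%), beside 1.2% and 1.2%. Most sites showed little difference: their median was -0.18 rank points, and over all regions it was 0. The count followed the samples in the comparison, with 16 lower and 17 higher without DMSO replicate 3, 16 and 9 without DMSO replicate 2, 17 and 8 without BMS493 replicate 1, and 97 lower and 2 higher without DMSO replicate 1. Counts over all regions of the genome moved too, from 1256 lower and 998 higher to 431 and 2338 without DMSO replicate 3. They were 738 and 1849 without DMSO replicate 2, 602 and 1655 without BMS493 replicate 1, and 6125 and 396 without DMSO replicate 1. These counts cover the whole genome and not the 11 chromosomes alone. Without DMSO replicate 3, higher regions far outnumbered lower ones over the genome and were about as many at RAR sites. Without DMSO replicate 2 or BMS493 replicate 1, higher regions led over the genome and lower ones at RAR sites. The count at RAR sites was 17 lower and 4 higher of 809 where a call had to cover 50% of a region (beside 1.08% and 0.693% on those chromosomes), and 13 and 4 of 686 in a fit of only the 6 samples (beside 0.301% and 0.519%). None of these regions passed an adjusted p of 0.05.

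Sites which the study had assigned to genes upregulated by RA in its RNA-seq of other libraries were examined next. Of 177 such regions 164 could be tested, and 15 (9.15%) were lower in BMS493 and 0 higher at an unadjusted limma p under 0.05, with a median of -5.40 rank points. Every DMSO rank was above every BMS493 rank in 12 of the 164 and every BMS493 rank above every DMSO rank in 1, beside 1.15% and 1.23% of all regions. With lists of equal length 16 of 141 were lower and 0 higher, with a median of -3.86, beside 2.24% and 2.32% of all regions. In regions called in all 6 samples the heights gave 14 of 86 (16.3%) lower and 0 higher, beside 1.78% and 1.64% of all regions. Where a call had to cover 50% of a region the count was 5 of 153 (3.27%), beside 1.02% of all regions, and in a fit of only the 6 samples 7 of 135 (5.19%), beside 0.375%, with 0 higher in both. Sites at genes downregulated by RA did not share this, with 1 of 65 lower, 0 higher and a median of 0. Leaving out 1 sample moved the count from 15 to 34 without DMSO replicate 1, 10 without DMSO replicate 2, 6 without DMSO replicate 3 and 7 without BMS493 replicate 1, with 0 or 1 higher in each. The lower count of all regions moved the same way in these fits, from 1256 to 6125, 738, 431 and 602.

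By sample, the mean rank of these 164 regions was 40.7, 62.4 and 66.1 in DMSO, 43.0, 57.0 and 43.9 in BMS493 and 81.2, 79.5 and 68.3 in RA. The groups of DMSO and BMS493 overlapped on this scale, DMSO replicate 1 being the lowest of the 6. At equal length the means were 46.1, 51.0 and 51.2 in DMSO and 39.4, 46.7 and 36.8 in BMS493, while those of all regions were 34 to 36.6 and 35.2 to 36.4. BMS493 replicate 2 was then still above DMSO replicate 1, and the RA samples stood apart at 75.2, 77.6 and 65.9.

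**Figure D3:**
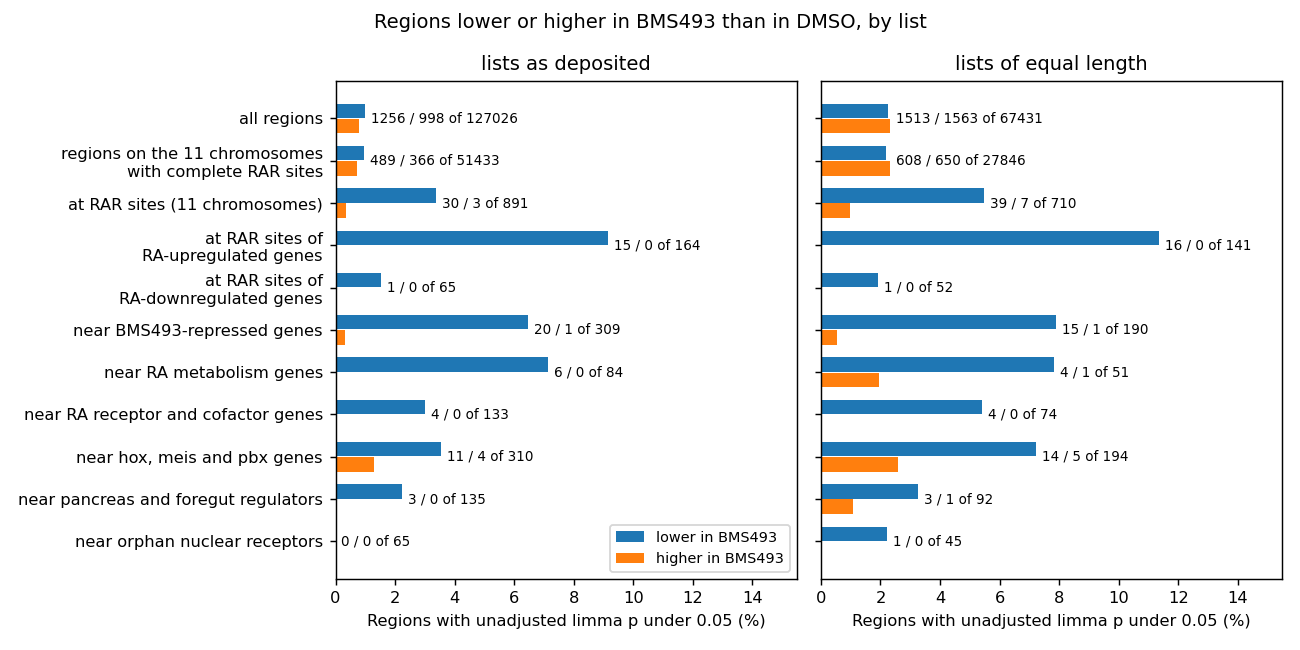
Percentage of the regions in each list that were lower (blue) or higher (orange) after BMS493 by an unadjusted limma p under 0.05, with the lists as deposited (left) and cut to equal length (right); figures beside the bars are lower, higher and tested regions. Regions at RAR sites of RA-upregulated genes had 15 lower and 0 higher of 164, against 0.989% and 0.786% of all regions.

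The 15 regions belonged to 15 genes. They included enzymes that remove RA or its precursor (cyp26a1, cyp26b1, dhrs3a), a receptor for RA (raraa), the homeobox gene hoxa1a, the zinc finger gene tshz1, the Notch receptor notch1b, the Wnt co-receptor ror1, the basement membrane collagen col18a1, the actin regulator coro2a and the antizyme oaz2b, besides OLFML2A (2 of 2), zgc:158309, zgc:194209 and si:ch211-84g22.1. RA samples called 14 of the 15 in all 3 replicates, with no RA peak at coro2a. Of all tested regions they called 74.4%, 61.5% and 55.6%. Of the 891 tested regions at RAR sites with a score above 50 they called 90.8%, 86.2% and 78.3%. Of all 164 regions they called 94.5%, 94.5% and 87.2%. High shares were thus not confined to these 164 regions. The region with the smallest p was at zgc:158309 (chr3:48524511-48524956), with ranks of 27.1, 73.1 and 82.2 in DMSO, 0 in all BMS493 samples and 89.0, 90.5 and 95.5 in RA. The difference was -60.8 ± 14.5 rank points (SE; limma adjusted p = 1). At OLFML2A (2 of 2) (Zv9_NA921:74683-74969) the DMSO ranks of 57.9, 45.7 and 78.1 stood against 0, 10.3 and 0 in BMS493. Groups did not overlap in 8 of the 15 regions. Heights could be compared only in the 7 of the 15 called in all 6 samples, and these were lower at an unadjusted limma p under 0.05. The 15 had been chosen by p on these same samples, so neither count is separate support.

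The cyp26 genes encode the cytochrome P450 enzymes that clear RA. The region of cyp26b1 at a RAR site 55.6 kb upstream of its start (chr7:26435016-26435488) had pileups of 17, 25 and 31 in DMSO, 8, 18 and 7 in BMS493 and 70, 47 and 45 in RA. Its ranks were 83.4, 88.7 and 94.2 in DMSO and 23.9, 74.8 and 12.3 in BMS493, with no overlap. BMS493 replicate 2 was the nearest to the controls. In log2 pileup, scaled to a common distribution, BMS493 was lower by -1.28 ± 0.242 (SE, n = 3 in each group), the most negative difference and the smallest p among the 36502 regions called in all 6 samples; with this many regions the limma adjusted p was 0.382, and without BMS493 replicate 2 it was 0.0263, against 0.998 or more without any other sample. This region was chosen here after its values had been seen, since it lies past the 50 kb window of the gene lists. Within 50 kb of the cyp26b1 start, 0 of 13 tested regions were lower and 0 higher at an unadjusted limma p under 0.05, beside 0.989% and 0.786% of all regions. Another cyp26b1 site, 43.9 kb upstream (chr7:26446711-26447203), was at 91.7, 88.7 and 78.1 in DMSO and 44.7, 81.4 and 64.0 in BMS493, which overlap. The one 44.0 kb downstream (chr7:26534696-26535078) was called after RA at 91.5, 92.2 and 81.1, in 1 of 3 DMSO samples at 22.7 and in no BMS493 sample.

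At cyp26a1 a distal site stood apart between the treatments while the mean ranks at the promoter were close. The distal site, 33.8 kb downstream of the start and past the gene (chr12:9678592-9678920), ranked 69.7, 76.0 and 80.3 in DMSO, 35.0, 51.3 and 43.7 in BMS493 and 89.9, 88.3 and 72.5 in RA. All DMSO samples were above all BMS493 samples, with a difference of -32.0 ± 8.88 (SE; limma adjusted p = 1). The site at the promoter (chr12:9712011-9712939) ranked 39.4, 76.0 and 78.1 in DMSO and 68.8, 65.2 and 58.4 in BMS493, a difference of -0.36 ± 9.03, while RA samples reached 95.5, 93.0 and 92.7. The upstream region chr12:9733156-9733800 was likewise alike in mean rank, at 84.4 ± 12.9 in DMSO and 84.2 ± 7.15 in BMS493 (SD, n = 3).

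The retinaldehyde reductase gene dhrs3a is also on the list of genes with lower RNA after BMS493. It had 4 of 14 tested regions within 50 kb lower at an unadjusted limma p under 0.05, and 0 higher. At its promoter (0.11 kb from the start, chr23:21957603-21958163) the ranks were 27.1, 45.7 and 60.9 in DMSO, 0 in all BMS493 samples and 87.0, 72.6 and 78.7 in RA. The difference was -44.5 ± 16.1 (SE; unadjusted p = 0.0128, limma adjusted p = 1). The 3 RAR sites in and behind the gene gave one picture: no or almost no peak in BMS493, a middling one in DMSO replicates 2 and 3, and a tall one in RA. At 4.63 kb (chr23:21962216-21962583) DMSO was at 0, 66.3 and 65.3, BMS493 at 0 throughout, and RA at 95, 92.2 and 83.3. At 3.9 kb the only BMS493 call was at 3.18 and at 13 kb it was at 12.5, and DMSO replicate 1 had no peak at any of the 3 sites, so DMSO and BMS493 overlapped at 0. In a region 28.4 kb downstream (chr23:21986032-21986320) the treatments did not overlap, at 74.0, 78.5 and 78.1 in DMSO and 59.0, 29.6 and 23.4 in BMS493. It overlapped no listed RAR site, but the full list of sites was not used on this chromosome.

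No region within 50 kb of the other genes of RA metabolism had an unadjusted limma p under 0.05, and the same was true of cyp26b1. At dhrs3b, the paralogue of dhrs3a, 0 of 16 regions passed in either direction, and its tallest RAR site (chr11:29488742-29489202) stood at 97.7 ± 1.28 in DMSO and 98.3 ± 0.717 in BMS493 (SD, n = 3). A RAR site 11.8 kb upstream of lrata, which stores retinol as esters, was assigned by the study to another gene, fgg. This site had no peak in any DMSO or BMS493 sample and ranks of 60.0, 60.8 and 34.6 in RA. For aldh1a2, the enzyme that makes RA, 0 of 15 regions passed. With 0.989% of all regions lower and 0.786% higher, these single genes have too few regions for a count of 0 to set them apart. Over the 6 placed genes of this list, 6 of 84 tested regions were lower (7.14%) and 0 higher at an unadjusted limma p under 0.05, beside 0.989% and 0.786% of all regions, with a median of -0.73. At equal length 4 of 51 were lower and 1 higher, beside 2.24% and 2.32%. With 50% coverage 0 of 67 were lower, beside 1.02% of all regions, and with only the 6 samples fitted 2 of 56, beside 0.375%. Without DMSO replicate 3 the lower count was 2 of 80, and without DMSO replicate 1 it was 20 of 84. Of all regions, 431 and 6125 were lower in the same fits, beside 1256 with every sample.

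**Figure D4:**
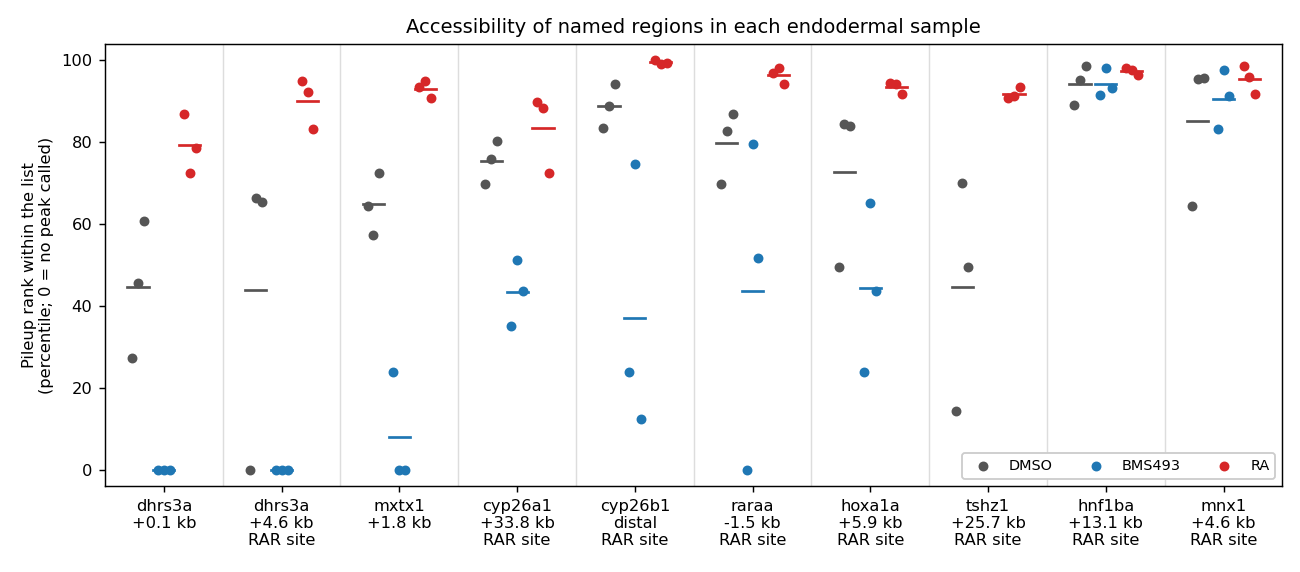
Percentile rank of the pileup within each list (vertical axis, 0 where no peak was called) in every DMSO, BMS493 and RA sample for 10 regions, labelled by gene, distance from the transcription start site and presence of a RAR site; points are samples and bars are means of 3. BMS493 ranks lay below all DMSO ranks at dhrs3a +0.1 kb, mxtx1, cyp26a1, cyp26b1 and tshz1, and at the level of DMSO at hnf1ba and mnx1.

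Among genes for RA receptors and their cofactors, 4 of 133 tested regions were lower (3.01%) and 0 higher, beside 0.989% and 0.786% of all regions, with a median of 0. At equal length 4 of 74 were lower, beside 2.24%, with 50% coverage 1 of 99 (1.01%, beside 1.02% of all regions), and with only the 6 samples fitted 1 of 92 and 1 higher. The lower share of all regions was 0.375% with only the 6 samples fitted. Without DMSO replicate 3 or BMS493 replicate 1 the lower count was 1, without DMSO replicate 2 it was 2, and without DMSO replicate 1 there were 12. Of all regions, 431, 602, 738 and 6125 were lower in the same fits, beside 1256 with every sample. The RAR site 1.52 kb upstream of raraa (chr12:12185111-12185492), the gene for RAR alpha a, ranked 69.7, 82.8 and 87.0 in DMSO, 0, 79.4 and 51.7 in BMS493 and 96.9, 98.1 and 94.2 in RA. BMS493 replicate 2 lay within the DMSO range, and the difference was -36.1 ± 13 (SE; limma adjusted p = 1). The tallest raraa RAR site (chr12:12158461-12159341) was at 99.2 ± 0.387 in DMSO and 97.7 ± 1.76 in BMS493 (SD, n = 3). A region 2.01 kb upstream of rxrga, which encodes an RXR partner, was at 69.7, 80.8 and 78.1 in DMSO and 3.96, 68.8 and 58.4 in BMS493, with all DMSO samples higher; rxrga, nrip1b and ncoa3 were placed through peaks that the study had chosen as different between RA and BMS493. For nrip1a, a corepressor that binds liganded nuclear receptors, the RAR site 21.4 kb upstream (chr15:28989904-28990284) was at 0, 45.7 and 84.0 in DMSO, at 0, 10.3 and 0 in BMS493 and at 87.0, 90.5 and 75.8 in RA. The coactivator gene ncoa3 had 0 of 24 regions past the threshold, too few regions to set it apart from the shares of all regions.

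The hox genes give cells their anteroposterior address, and meis and pbx encode their DNA-binding partners. Within 50 kb of the 20 placed genes, 11 of 310 tested regions were lower (3.55%) and 4 higher (1.29%), beside 0.989% and 0.786% of all regions, with a median of -1.85. At equal length 14 of 194 were lower and 5 higher, beside 2.24% and 2.32%, with 50% coverage 7 of 267 and 3 higher, and with only the 6 samples fitted 6 of 221 and 1 higher. The lower shares of all regions were 1.02% with 50% coverage and 0.375% with only the 6 samples fitted. Clustered hox genes share regions, which are counted once, and 10 of the 20 genes were placed through peaks that differed between RA and BMS493. The lower count was 4 with 5 higher without DMSO replicate 3, 6 with 3 higher without DMSO replicate 2, 45 with 1 higher without DMSO replicate 1 and 21 with 0 higher without BMS493 replicate 2. Of all regions, 431, 738, 6125 and 2062 were lower in the same fits, and 2338, 1849, 396 and 672 were higher. At the RAR site 5.92 kb downstream of the hoxa1a start (chr19:19257613-19258137) DMSO ranked 49.6, 84.5 and 84.0, BMS493 23.9, 65.2 and 43.7 and RA 94.5, 94.3 and 91.8. DMSO replicate 1 was below BMS493 replicate 2, and the difference was -28.4 ± 11.3 (SE; limma adjusted p = 1). Between hoxc1a and hoxc4a, chr23:36188985-36189201 was called in DMSO at 49.6, 57.4 and 72.6 and in no BMS493 sample (-59.8 ± 16, SE; unadjusted p = 0.00154, limma adjusted p = 1), and chr23:36202766-36203094 at 39.4, 57.4 and 69.2 and in no BMS493 sample. The hoxc cluster also held a region of the opposite sign, 15.7 kb upstream of hoxc4a (chr23:36166657-36166892), with no peak in DMSO and ranks of 0, 72.0 and 68.8 in BMS493.

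In the other hox clusters DMSO replicate 1 often lacked the peak. The region inside hoxb6a (chr3:23996325-23996627) was at 0, 78.5 and 85.6 in DMSO and uncalled in BMS493, with RA at 90.7, 84.0 and 78.7 and no peak in NE. At hoxb1b, an anterior hox gene on the list of genes with lower RNA after BMS493, 1 region was lower and 1 higher of 28 at an unadjusted limma p under 0.05. The median difference of the 28 was -12.8 rank points. The RAR site 11 kb from its start (chr12:28722695-28723595) was at 93.2 ± 6.60 in DMSO and 93.7 ± 1.78 in BMS493 (SD, n = 3). A RAR site 21.6 kb from the hoxb1b start, which the study assigned to the neighbouring gene skap1 (chr12:28733559-28734049), was at 74.0, 93.3 and 90.4 in DMSO and 64.3, 90.6 and 64.0 in BMS493, which overlap. At meis genes, 23.0 kb upstream of meis3 (chr15:6776752-6777187), DMSO ranked 77.7, 89.9 and 92.2 and BMS493 78.6, 65.2 and 64.0, and within meis4.1a (chr1:52013052-52013436) DMSO ranked 0, 84.5 and 85.6 and BMS493 was uncalled, with RA at 97.1, 99.2 and 96.4. The treatments overlapped at both, BMS493 replicate 1 being above DMSO replicate 1 at meis3 and DMSO replicate 1 lacking the meis4.1a peak. The RAR site further into meis4.1a (chr1:52025629-52025962) was at 39.4, 62.2 and 65.3 in DMSO and 0, 38.1 and 34.2 in BMS493, with no overlap.

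Regulators of the pancreas and foregut showed few differences, and those were at gata6. The list gave 3 of 135 tested regions lower (2.22%) and 0 higher, beside 0.989% and 0.786% of all regions, with a median of -0.17, all 3 of them at gata6, a zinc finger factor of endoderm that is also on the list of genes with lower RNA after BMS493. The count was 0 with 3 higher without DMSO replicate 2 or without DMSO replicate 3, and 6 with 0 higher without DMSO replicate 1. Of all regions, 738, 431 and 6125 were lower in the same fits, and 1849, 2338 and 396 were higher. At equal length the list gave 3 of 92 lower and 1 higher, beside 2.24% and 2.32%, with 50% coverage 3 of 114 and 2 higher, with only the 6 samples fitted 2 of 98 and 0 higher, and on placed chromosomes alone, which leaves out gata6, 0 of 112 either way. The lower shares of all regions were 1.02% with 50% coverage and 0.375% with only the 6 samples fitted. On its scaffold, the region 17.9 kb upstream of gata6 (Zv9_scaffold3540:193052-193469) ranked 4.55, 51.9 and 65.3 in DMSO, 0 in all BMS493 samples and 60.0, 41.7 and 63.9 in RA, with no peak in NE. The region 28.7 kb upstream (Zv9_scaffold3540:203814-204141) ranked 69.7, 86.1 and 90.4 in DMSO and 75.8, 0 and 43.7 in BMS493, so that BMS493 replicate 1 lay within the controls. The gata6 RAR site between them (Zv9_scaffold3540:201525-202093) was near the top of all 6 lists, at 98.4 ± 0.536 in DMSO and 97.8 ± 2.22 in BMS493 (SD, n = 3), a difference of -0.59 ± 2.61 (SE).

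The RAR sites of other pancreatic regulators ranged from the top of the lists to no call in either treatment. In hnf1ba, a homeobox factor of the foregut and pancreas, the site 13.1 kb from the start (chr15:15018621-15019050) ranked 89.1, 95.1 and 98.6 in DMSO and 91.5, 98.1 and 93.2 in BMS493, a difference of 0.013 ± 9.70 (SE), and it was called in 1 NE sample. This SE, from the fit of all 12 samples, includes the NE spread (SD 25.2). The SD was 4.83 in DMSO and 3.40 in BMS493. At mnx1, a homeobox gene of the pancreatic bud, the site 4.6 kb away (chr7:42035163-42035974) ranked 64.5, 95.6 and 95.7 in DMSO and 83.2, 97.5 and 91.3 in BMS493. At insm1b, a zinc finger gene of endocrine precursors, the RAR site 46.3 kb from the start (chr17:41625688-41626167) ranked 27.1, 20.2 and 60.9 in DMSO, 52.6, 45.2 and 34.2 in BMS493 and 89.9, 84.0 and 78.7 in RA. The insm1b site 7.07 kb upstream (chr17:41572453-41572720) had no peak in any DMSO or BMS493 sample and was called in 2 RA samples, and the hnf1bb site (chr21:37787705-37788196) was at 0, 57.4 and 33.2 in DMSO and 0, 29.6 and 34.2 in BMS493. The DMSO and BMS493 ranges overlapped or were both 0 at all these sites, and the standard errors leave differences of several rank points undetected. No region had an unadjusted limma p under 0.05 at the orphan nuclear receptor genes nr2f5, nr2f6b, nr6a1a and nr6a1b, with 0 of 65 in either direction and a median of -0.86. Of all regions, 0.989% were lower and 0.786% higher, so 65 regions are too few to set these genes apart. At equal length 1 of 45 was lower and 0 higher, beside 2.24% and 2.32%. Every DMSO rank was above every BMS493 rank in 2 of the 65 and below it in 1, beside 1.15% and 1.23%.

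Genes which the study's RNA-seq found repressed by BMS493 at the same stage had more regions lower than higher. Of 32 such genes 20 could be placed on Zv9, and of 309 tested regions within 50 kb of their starts 20 (6.47%) were lower and 1 (0.324%) higher at an unadjusted limma p under 0.05, beside 0.989% and 0.786% of all regions, with a median of -3.17 rank points. Regions with no listed RAR site made up 274 of them, with 16 lower and 1 higher, though the full list of sites was used on 11 chromosomes only. Within 10 kb, 8 of 87 were lower and 0 higher, with a median of -6.63, but 2 of 55 (3.64%) at equal length and 2 of 73 (2.74%) with 50% coverage. Within 50 kb, 15 of 190 were lower and 1 higher at equal length, beside 2.24% and 2.32%, and 8 of 102 were lower and 0 higher in heights, beside 1.78% and 1.64%. With 50% coverage 9 of 240 (3.75%, beside 1.02%) were lower, and with only the 6 samples fitted 9 of 199 (beside 0.375%), with 0 higher in both. The positions of 8 of the 20 genes came from a table of peaks that differed between RA and BMS493, which the study chose on these very BMS493 samples; the genes placed through RAR sites alone gave 16 lower and 1 higher of 222. The count depended on the samples: it was 5 lower and 3 higher without DMSO replicate 3, 8 and 1 without BMS493 replicate 1, 10 and 0 without BMS493 replicate 3, 11 and 2 without DMSO replicate 2, and 46 and 0 without DMSO replicate 1. Of all regions, 431, 602, 658, 738 and 6125 were lower in the same fits. The higher ones were 2338, 1655, 1119, 1849 and 396.

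By p, the first of these regions lay in mxtx1 (1.76 kb from the start, chr13:21798491-21798824), a homeobox gene of the mix-type family, one of those placed through the RA against BMS493 table. It ranked 64.5, 57.4 and 72.6 in DMSO, 23.9, 0 and 0 in BMS493 and 93.4, 94.8 and 90.8 in RA, and was uncalled in NE. The difference was -56.9 ± 14.8 (SE; unadjusted p = 0.00123, limma adjusted p = 1). At the mxtx1 start itself DMSO ranked 0, 62.2 and 42.2, BMS493 was uncalled, and RA ranked 77.8, 69.2 and 68.6. Over the 11 tested regions within 50 kb of mxtx1 the median difference was 5.92 rank points, so the locus as a whole was not lower. In tshz1, a zinc finger gene of the teashirt family, the RAR site at 25.7 kb (chr19:21870370-21870745) ranked 14.3, 69.9 and 49.5 in DMSO, 0 in all BMS493 samples and 90.7, 91.4 and 93.5 in RA, and the one at 18.1 kb (chr19:21862750-21863164) ranked 77.7, 80.8 and 91.3 in DMSO and 68.8, 74.8 and 72.8 in BMS493. These 2 tshz1 sites separated the treatments without overlap, whereas the RAR site at 19.9 kb was called in 1 DMSO and no BMS493 sample and the one 43.5 kb upstream in neither treatment. Mean ranks were also lower in BMS493 35.7 kb upstream of the collagen gene col7a1l (49.6, 66.3 and 91.3 in DMSO, 35.0, 51.3 and 0 in BMS493) and 20.3 kb downstream of the start of SLC22A3, an organic cation transporter (91.7, 82.8 and 88.3 in DMSO, 75.8, 81.4 and 68.8 in BMS493). The RAR sites of nr2f5, a nuclear receptor, foxg1b, a forkhead gene, and ppm1h, a phosphatase, differed by -0.86 ± 4.54, -5.27 ± 16.8 and 0.99 ± 4.48 rank points (SE).

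**Figure D5:**
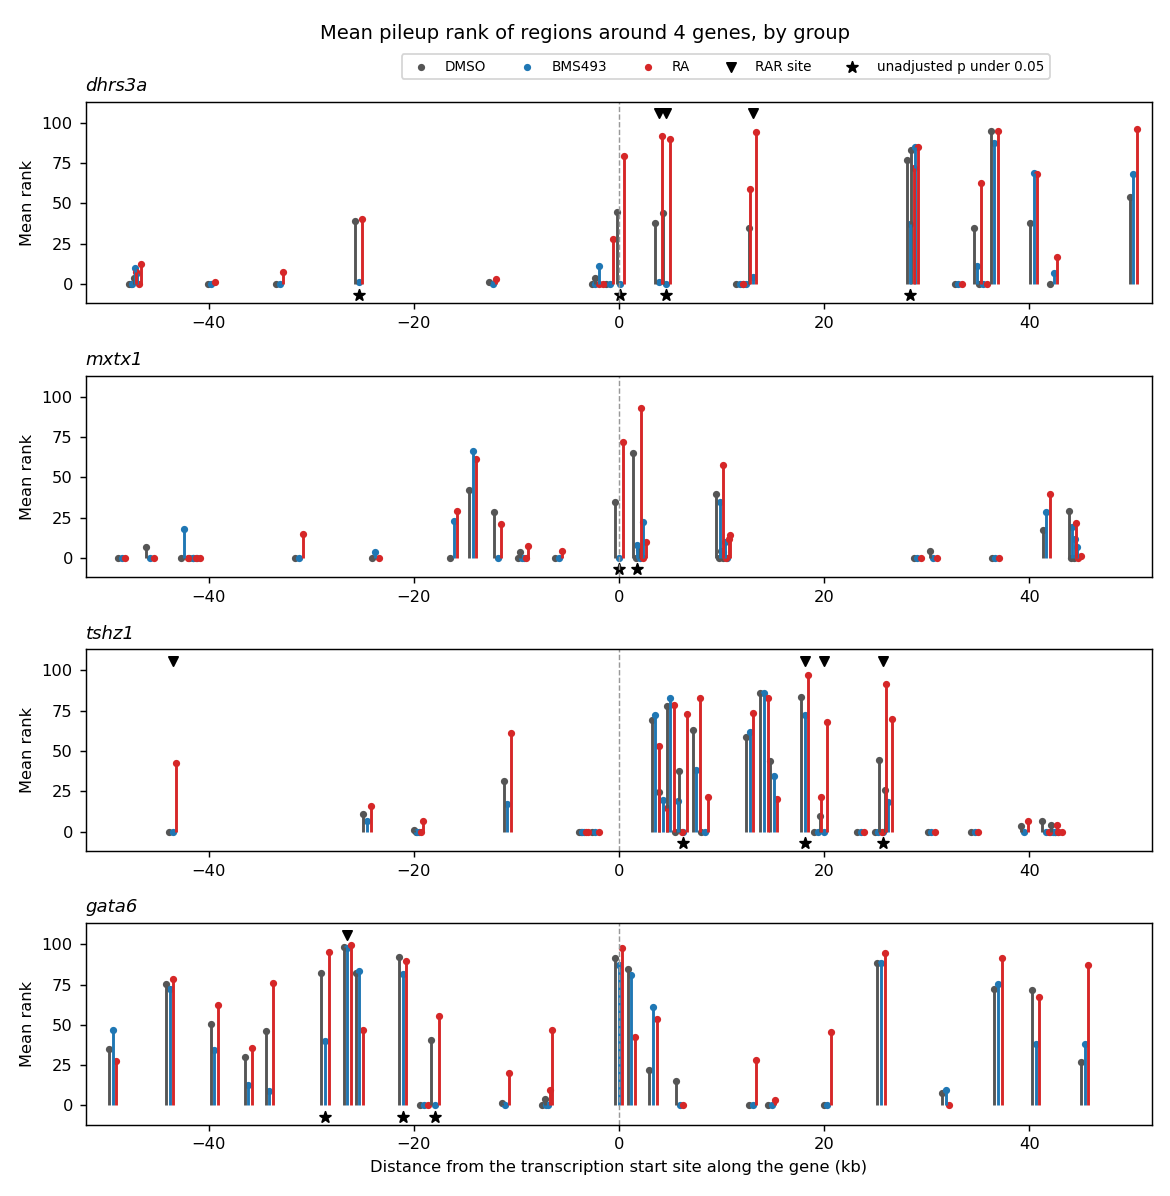
Mean percentile rank of the pileup (vertical axis) in DMSO, BMS493 and RA for every region within 50 kb of the start of dhrs3a, mxtx1, tshz1 and gata6, by distance along the gene in kb (horizontal axis; the 3 groups of a region are drawn side by side). Triangles mark RAR sites and stars an unadjusted limma p under 0.05; the mean of BMS493 was 0 at the dhrs3a promoter against 44.5 in DMSO and 79.4 in RA, and the gata6 RAR site stood at 98.4 and 97.8.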

How the data were processed

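The deposited files are MACS2 (version 2.1.1.20160309) peak lists, 1 for each ATAC-seq sample. Per the labels and the methods of the study, the authors aligned reads to Zv9 with Bowtie2 and called peaks per sample, without pooling replicates. Per the file headers, duplicates were limited to 1 tag a position, and tags were shifted by 40 bp towards 3′ and extended to 80 bp in every sample, so the stacked window lies beside the transposase cut and is not centred on it. The files give for each peak a deposited pileup signal, a fold enrichment (a ratio to local background) and −log10 p and q values made by the authors. Pileups are not read counts, so no count model was used, and fold enrichment was not analysed. Depth limits small peaks most, since most pileups are near 10 tags.

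Here peaks of all 12 lists were merged where they shared 1 bp (checked with bedtools 2.31.1), and pileups were ranked within each list. limma 3.58.1 (R 4.3.3; trended, robust) was fitted on all 12 samples for regions called in at least 3, by condition, with BMS493 minus DMSO as the contrast and p-values adjusted over all regions. Log2 pileups of regions called in all 6 samples were quantile normalised before a second limma fit. The steps were tested on simulated data. Gene positions on Zv9, RAR sites (score above 50; all sites on 11 chromosomes) and lists of RA- or BMS493-regulated genes came from the study's tables, and genes without a position there were not analysed here: 6 of 9 genes of RA metabolism, 7 of 15 of receptors and cofactors, 8 of 19 of pancreas and foregut and 4 of 7 of orphan receptors were placed. To mark single regions, sites of any score on the 11 chromosomes were used. On other chromosomes only sites assigned to RA-regulated genes or lying in conserved noncoding elements were used, so an unmarked region there may still hold a site. Named regions are those past an adjusted p of 0.05, the 5 in each direction with the smallest p among those called in 3 samples of 1 group and none of the other, and, for each listed gene, the region within 50 kb with the smallest p and those at RAR sites; a selection of the last is given. The members and lists were chosen with earlier results of these data known. Alternatives were list length, a −log10 q of at least 3, 50% coverage, merging within 100 bp, ranking by q, placed chromosomes, sample minimums, windows, the replicate block and leaving out each sample. No sequences are printed, since no Zv9 sequence was used here.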

Additional observations from a re-analysis of the deposited data

How the results depend on the processing

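The region lower in BMS493 (1) was lost, with a count of 0, under lists of equal length, a −log10 q of at least 3, calls covering 50% of a region, ranking by −log10 q, a fit of only the 6 samples, the replicate block, and equal length with the block (added after seeing the data); without a sample minimum there were 3 lower and 1 higher. Leaving out 1 sample gave 0 to 7 lower and 0 to 5 higher, and at equal length (added after seeing the data) 0 to 4 and 0 to 1. The 270 regions of DMSO alone became 169 with 50% coverage and 408 to 4374 with 1 sample left out, and the 257 of BMS493 alone 300 to 1727. Leaving out 1 sample loosens the rule on the same calls, so these counts could not fall and their rise is no test. The median at RAR sites ranged from -5.64 to 1.16 with 1 sample left out, and that near BMS493-repressed genes from -10.3 to 0, beside -6.63 within 10 kb. For all regions, DMSO replicate 1 moved the median most, to -5.65 without it. Heights gave 0 to 2 regions with 1 sample left out, the 2 without BMS493 replicate 2. Same-numbered DMSO and BMS493 samples correlated in their deviations at 0.206, 0.182 and 0.000592, a mean of 0.129. The mean of the 6 pairs with different numbers was -0.0648. Deviations cancel within each group, so this value nearly follows from the first mean and is no separate comparison. Whether same-numbered samples shared a batch was not tested. The main fit did not take the numbers as pairs, and the replicate block left 0 lower and 0 higher regions.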

Other observations

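Beside the regions described above, 2 further groups were examined. Genes whose RNA was lower after BMS493 at the later stage of 8 somites, a list that shares members with that of 3 somites and includes the CCAAT-binding factor cebpa and the tight junction genes cldn15a and cldn2, had 28 of 554 tested regions (5.05%) lower and 3 (0.542%) higher within 50 kb at an unadjusted limma p under 0.05, beside 0.989% and 0.786% of all regions, with a median of -3.08 rank points. Only 33 of its 68 genes could be placed. For 14 of the 33 the position came from the peaks that differed between RA and BMS493, chosen on these same BMS493 samples, so the count is not independent support. RAR sites that lie in conserved noncoding elements showed 2 of 90 regions (2.22%) lower and 0 higher, with a median of 0, and 5 of 76 (6.58%) lower at equal length, beside 2.24% of all regions.

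By height, the region next in order after that of cyp26b1 was chr5:26039296-26040432, 37.2 kb from znf703, a zinc finger gene active in the hindbrain. Its pileups were 20, 33 and 32 in DMSO and 9, 23 and 11 in BMS493, a difference of -1.10 ± 0.217 in log2 pileup (SE; limma adjusted p = 0.382, and 0.0263 without BMS493 replicate 2). In the opposite direction, chr22:26939554-26939882 had pileups of 6, 13 and 12 in DMSO and 23, 18 and 19 in BMS493 (limma adjusted p = 0.9998). Both were chosen after their values were seen.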
